A study of Arabidopsis thaliana with 18 samples.

Results

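Seedlings of Arabidopsis thaliana in which the transcription factor PLETHORA1 (PLT1) had been activated were compared with seedlings in which PLETHORA7 (PLT7) had been activated. The comparison used 5 of the 18 arrays of the study, namely replicates 1 and 2 of the PLT1 line and replicates 1, 2 and 3 of the PLT7 line. The arrays were chosen by their labels and by measured values. The third library labelled PLT1 was left out because its PLT1 probe set stood at 3.50 on the log2 scale, against 11.00 and 11.08 in the 2 PLT1 libraries kept. Both lines were taken because their responses to induction were the largest of the 5 lines: against mock, 2883 probe sets (13.5%) in PLT1 and 2009 (9.37%) in PLT7 were called with a change of at least 2-fold, while the other lines had 917 (4.28%, PLT3), 1137 (5.31%, PLT4) and 471 (2.2%, PLT5). These values set the choice and are given as a description.

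The sample descriptions name the genotypes 35S-PLT1-GR and 35S-PLT7-GR, and the titles write them without the S. In both, the 35S promoter drove a fusion of the PLT protein to the hormone-binding part of the glucocorticoid receptor (GR), and both received 10 µM dexamethasone (dex) for 6 h. Seedlings were 4 days old when about 50 were put into each flask of liquid medium, and dex was added on the following day, with the genotypes started 5 min apart. The mock group held 4 libraries of 35S-PLT4-GR seedlings of the same age given the solvent DMSO. It is used here to show on which side of an uninduced seedling each line lay. The 35S promoter is active in most cell types, so the fusions were made far outside the cells in which PLT genes act. Neither line had a mock group of its own, and seedlings without a fusion were not treated with dex. The labels give no number of independent insertions for either line. The PLT protein, its level and the rest of the line's genotype therefore cannot be told apart.

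PLT proteins belong to the AINTEGUMENTA-LIKE (AIL) group of AP2-domain transcription factors. PLT1 acts with PLT2 in the stem cell niche and dividing zone of the root, where a gradient of PLT activity separates stem cells, dividing cells and elongating cells. PLT7 is known for its part, with PLT3 and PLT5, in the outgrowth of lateral roots and in the placement of organs at the shoot tip. A GR fusion is held in the cytoplasm until dex binds it, and then enters the nucleus. Auxin raises PLT expression in roots, and PLT proteins in turn act on auxin synthesis and transport genes.

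The 2 PLT1 libraries correlated at 0.9938 over all probe sets, the PLT7 libraries among themselves at 0.9967 to 0.9969, and PLT1 with PLT7 libraries at 0.9814 to 0.9864. The excluded library averaged 0.9683 with the 2 PLT1 libraries. It also had the largest gap between the 3' and 5' actin control probe sets, 2.67 log2 units, against 1.13 to 1.52 in the PLT1 libraries kept and 1.09 to 1.38 in the PLT7 libraries. The labelled tissue, whole seedlings, showed in both lines: 14 photosynthesis genes were measured with summed linear levels of 89616 to 95689 in PLT1 and 97654 to 102339 in PLT7 libraries, and 8 genes known from roots summed to 8969 to 9603 in PLT1 and 9673 to 10416 in PLT7 libraries. Such sums are carried by the members of highest level. Against mock, 12 of the 14 photosynthesis genes and 5 of the 8 root genes were lower in PLT1, beside 23% of all probe sets. In PLT7 these numbered 10 and 5, beside 22.4%. In such bulk tissue, fewer cells of a type and less RNA per cell cannot be told apart. All values are log2 levels as deposited, a log2 difference is PLT1 minus PLT7 with its standard error (SE), and a gene counts as called, that is as higher or lower, at a Benjamini-Hochberg adjusted p under 0.05 over 21430 probe sets in limma.

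The PLT genes themselves were read first. The PLT1 probe set was at 11.00 and 11.08 in PLT1 libraries, against 3.77, 3.69 and 3.85 in PLT7 libraries and 3.52 to 3.88 in mock. The PLT7 probe set (AIL7 in the gene table) was at 3.81 and 3.64 in PLT1 libraries, against 10.91, 11.14 and 10.99 in PLT7 libraries and 3.40 to 3.65 in mock. The difference of PLT1 minus PLT7 was 7.27 log2 units at the PLT1 probe set and -7.29 at the PLT7 probe set. These differences follow from the transgenes and, for PLT1, from the choice of libraries (4.76 with the library labelled PLT1 replicate 3), and each is measured against a level near the bottom of the scale. Levels of different probe sets are not comparable, so these values do not say whether both fusions were made in equal amounts. The excluded library held 10.28 at the PLT2 probe set, which was at 4.36 and 4.38 in the 2 PLT1 libraries and 4.22 to 4.29 in PLT7 libraries.

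**Figure D1:**
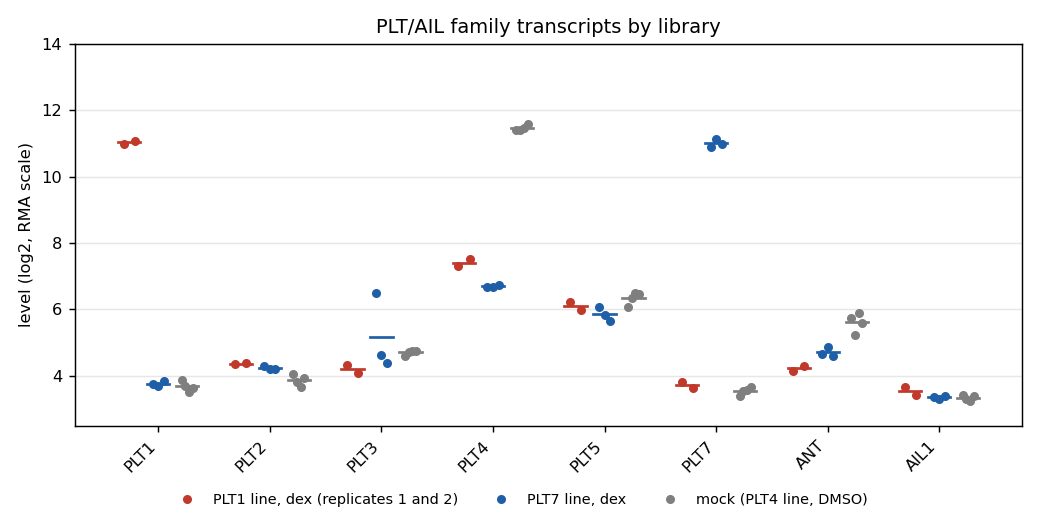
Levels of the 8 PLT/AIL transcripts (log2, RMA scale) in each library of the PLT1 line, the PLT7 line and mock, with group means as lines. PLT1 stands at 11.00 and 11.08 in the PLT1 line alone, PLT7 at 10.91 to 11.14 in the PLT7 line alone, and PLT3 at 6.49 in 1 PLT7 library.

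Beside the induced genes, 2 of the 6 other family members were called, while 16.2% of all probe sets were called, and both calls ended with the library labelled PLT1 replicate 3. The median over all 8 members was 0.16. PLT4 (BBM in the gene table), which promotes embryo development and is expressed from the transgene in the mock line, was at 7.32 and 7.51 in PLT1 libraries, against 6.67, 6.68 and 6.74 in PLT7 libraries. The groups were apart by 0.72 ± 0.10 (SE; adjusted p = 4.37e-05). With the library labelled PLT1 replicate 3, where it was at 5.57, the difference was 0.10 and not called (adjusted p = 0.889). AINTEGUMENTA (ANT), a regulator of organ growth, was at 4.16 and 4.31 in PLT1 libraries, against 4.65, 4.86 and 4.61 in PLT7 libraries, a difference of -0.47 ± 0.15 (SE; adjusted p = 0.0406). That call ended when any of the 5 libraries was left out (adjusted p = 0.0546 to 0.237) and with the third PLT1 library included (adjusted p = 0.358). PLT3 (AIL6) was at 4.34 and 4.08 in PLT1 libraries, against 6.49, 4.63 and 4.39 in PLT7 libraries. One PLT7 library, replicate 1, stood apart, so the difference of -0.96 ± 0.38 (SE; adjusted p = 0.1) was -0.30 without it (adjusted p = 0.204) and was called without PLT7 replicate 3 instead (-1.34, adjusted p = 0.0196). PLT2, PLT5 (AIL5) and AIL1 (AT1G72570) differed by 0.13 ± 0.38, 0.24 ± 0.15 and 0.19 ± 0.12 and were not called (SE; adjusted p = 0.878, 0.322 and 0.355).

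Across all probe sets, 3477 of 21430 (16.2%) differed between the lines, 1798 higher in PLT1 (8.39%) and 1679 lower in PLT1 (7.83%). Of these, 425 (1.98%) differed by at least 2-fold, 205 higher (0.957%) and 220 lower in PLT1 (1.03%), and 23 and 29 by at least 4-fold. The quartiles of all differences were -0.12 and 0.16, the median was 0.02, and the outermost twentieths began at -0.49 and 0.48. The PLT1 and PLT7 libraries did not overlap for 9698 probe sets (45.3%). With the library labelled PLT1 replicate 3 the calls numbered 1778, of which 1583 were among the 3477 in the same direction. The PLT1 probe set of that library stood at 3.50, so calls that end with it are no test of PLT1 induction. Without PLT7 replicate 1, the library with PLT3 signal, 2843 were called, 2738 of them shared in direction with the 3477. Leaving out PLT1 replicate 1 gave the fewest calls of any of the 5 libraries, 2159.

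**Figure D2:**
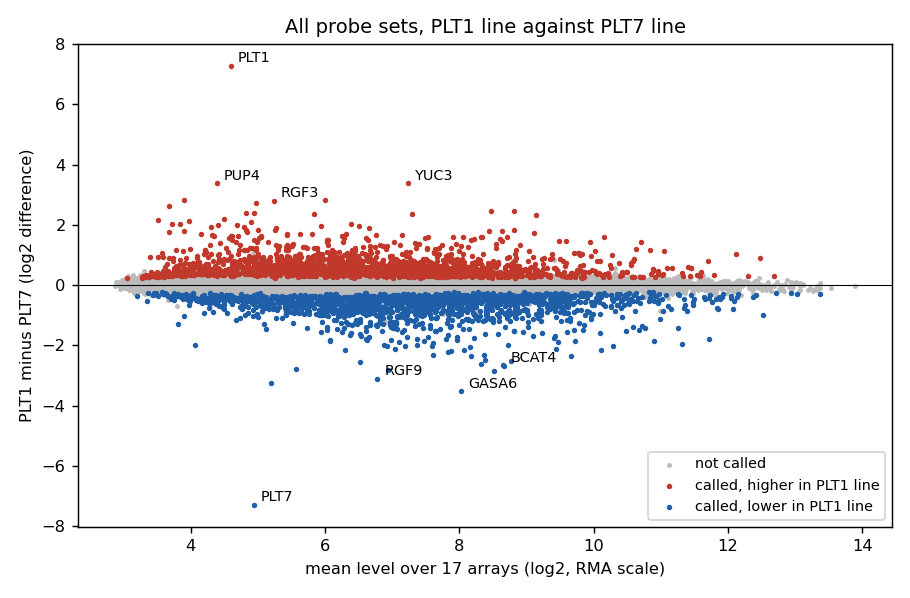
Mean level over the 17 arrays of the fit (horizontal axis, log2) against the log2 difference of PLT1 minus PLT7 (vertical axis) for 21430 probe sets, with called probe sets in colour. The 2 induced genes lie at 7.27 and -7.29, and YUC3, PUP4, RGF3, GASA6, RGF9 and BCAT4 are among the named genes farthest from 0.

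Among named genes other than the fusions, the largest rise was in YUC3, a flavin monooxygenase that makes the auxin indole-3-acetic acid. YUC3 was at 11.27 and 11.25 in PLT1 libraries, against 8.07, 7.92 and 7.65 in PLT7 libraries and 5.34 to 6.42 in mock. Both lines lay above mock, and the PLT1 line lay above PLT7 by 3.38 ± 0.22 (SE; 10.4-fold, adjusted p = 1.22e-08). PUP4, of the purine permease family, was at 8.46 and 6.49 in PLT1 libraries, against 4.03, 4.11 and 4.14 in PLT7 libraries and 3.66 to 4.03 in mock. Its PLT1 libraries were far from each other (SD 1.39, against 0.0576 in PLT7) but both above every PLT7 library (3.38 ± 0.33 SE; adjusted p = 1.44e-06). The SE rests on the spread pooled over all groups and carries that distance only in part. RGF3, which encodes a precursor of a root meristem growth factor peptide, was at 8.89 and 9.27 in PLT1 libraries, against 6.34, 6.10 and 6.38 in PLT7 libraries and 3.15 to 3.93 in mock (2.80 ± 0.25 SE; adjusted p = 4.05e-07).

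For several of the most raised genes the PLT7 line lay close to mock. It was still called above mock for UMAMIT8 and TPPC, by 0.41 and 0.51 log2 units (adjusted p = 0.0044 and 8.05e-05). GLN1;4, a cytosolic glutamine synthetase, was at 6.29 and 6.65 in PLT1 libraries, against 4.42, 4.30 and 4.12 in PLT7 libraries and 3.94 to 4.21 in mock (2.18 ± 0.14 SE; adjusted p = 1.18e-08). The serine carboxypeptidase-like gene scpl38 was at 5.70 and 5.19 in PLT1 libraries, against 3.31, 3.39 and 3.19 in PLT7 libraries and 3.20 to 3.25 in mock (2.15 ± 0.11 SE; adjusted p = 1.77e-09). Its PLT7 and mock levels were near the bottom of the scale. UMAMIT8, of a family of amino acid transporters, was at 6.75 and 6.56 in PLT1 libraries, against 4.44, 4.90 and 4.64 in PLT7 libraries and 4.15 to 4.39 in mock (1.99 ± 0.13 SE; adjusted p = 1.55e-08). In each of these 3 genes no PLT1 library came within 1 log2 unit of a PLT7 or mock library. TPPC, a trehalose-6-phosphate phosphatase, was at 5.84 and 5.80 in PLT1 libraries, against 3.77, 3.84 and 3.75 in PLT7 libraries (2.03 ± 0.10 SE; adjusted p = 9.83e-10). The glycosyltransferase UGT71B1 was at 7.64 and 7.63 in PLT1 libraries, against 5.95, 5.48 and 5.40 in PLT7 libraries (2.03 ± 0.15 SE; adjusted p = 7.87e-08). UGT71B1 was also at 7.55 in the library labelled PLT1 replicate 3, beside the libraries kept.

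Other large rises were in YLS5, at 11.14 and 11.32 in PLT1 libraries against 8.89, 8.86 and 8.96 in PLT7 libraries (2.33 ± 0.10 SE; adjusted p = 1.13e-10), and in the cysteine protease gene CP1 (AT4G36880), at 9.54 and 9.05 in PLT1 libraries against 6.85, 7.23 and 6.69 in PLT7 libraries (2.37 ± 0.30 SE; adjusted p = 2.75e-05). PGL5, a 6-phosphogluconolactonase of the pentose phosphate pathway, was at 5.74 and 6.79 in PLT1 libraries, against 3.94, 4.50 and 4.33 in PLT7 libraries (2.01 ± 0.23 SE; adjusted p = 9.29e-06). Its call ended with the library labelled PLT1 replicate 3, where it was at 3.98 (1.25, adjusted p = 0.0939). The remaining gene among the 12 largest rises, AKN2, is described with the glucosinolate genes.

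**Figure D3:**
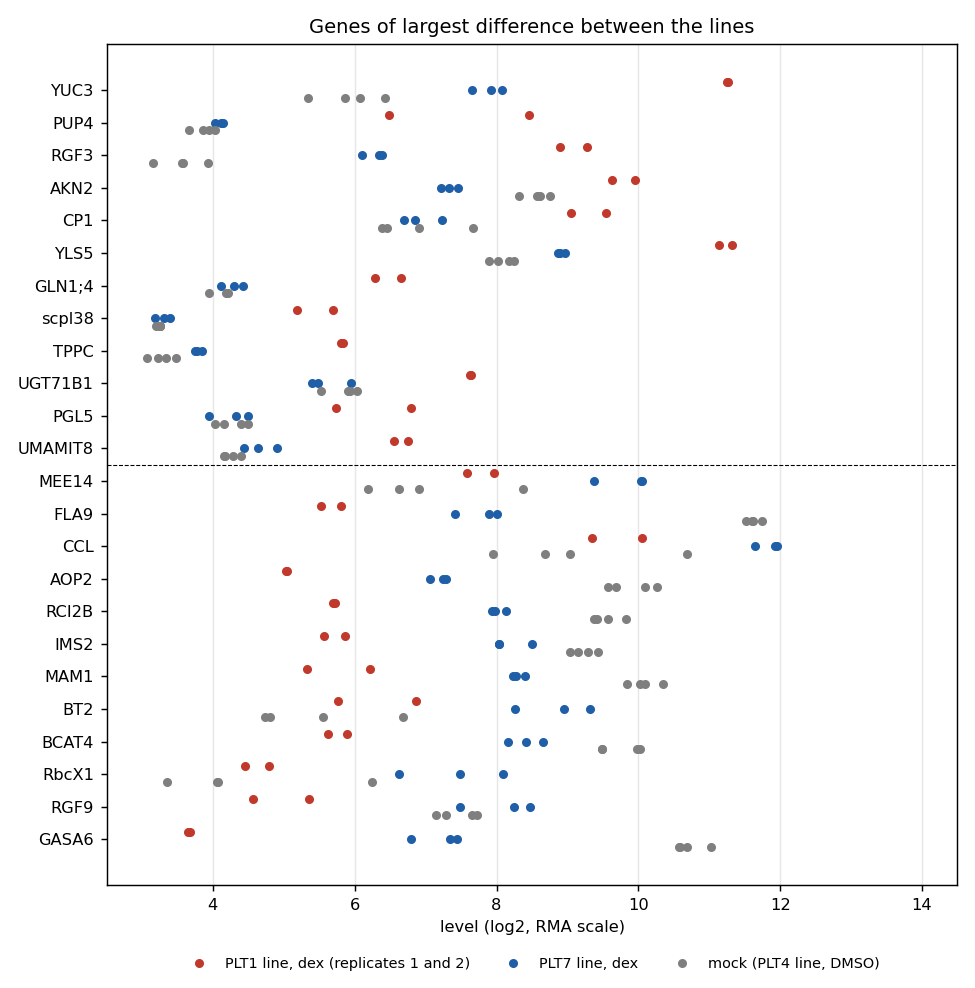
Levels (log2, RMA scale) of the 12 named genes with the largest rise (above the dashed line) and the 12 with the largest fall (below it) in each library of the PLT1 line, the PLT7 line and mock. The PLT1 and PLT7 points do not overlap in any of these genes, which the naming rule required. GASA6 has the largest measured fall in PLT1, at 3.65 and 3.68 against 6.79 to 7.44 in PLT7 and 10.58 to 11.02 in mock.

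Among named genes other than the fusions, GASA6, a gibberellin-regulated gene of the GASA family of cysteine-rich peptides, had the largest measured fall. GASA6 was at 3.68 and 3.65 in PLT1 libraries, against 7.34, 6.79 and 7.44 in PLT7 libraries and 10.58 to 11.02 in mock. Both lines lay below mock, with PLT1 near the bottom of the scale, where a level cannot be told from background, so only the measured log2 difference is given (-3.53 ± 0.18 SE; adjusted p = 1.07e-09). The library labelled PLT1 replicate 3 had 9.09, and with it the difference was -1.72 and not called (adjusted p = 0.288). FLA9, a fasciclin-like arabinogalactan protein of the cell wall, was at 5.80 and 5.53 in PLT1 libraries, against 8.0, 7.42 and 7.90 in PLT7 libraries and 11.52 to 11.75 in mock (-2.11 ± 0.15 SE; adjusted p = 5.85e-08), and its call also ended with that library (9.65, adjusted p = 0.548). RCI2B, a small membrane protein gene induced by cold, was at 5.69 and 5.72 in PLT1 libraries, against 8.14, 7.98 and 7.94 in PLT7 libraries and 9.38 to 9.83 in mock (-2.31 ± 0.16 SE; adjusted p = 3.27e-08). In these 3 genes the order was the same in every kept library, with PLT1 lowest, PLT7 between and mock highest. The other large falls were in 4 genes of methionine-derived glucosinolates, in RGF9, and in RbcX1, BT2, CCL and MEE14, which are described with the clock genes.

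Glucosinolates are sulfur-rich defence compounds of the cabbage order. Indole glucosinolates are made from tryptophan, and aliphatic ones from methionine after elongation of its side chain, with several late enzymes in common. The indole list had 8 of 14 measured members higher in PLT1 and none lower, all 8 by at least 2-fold, with a median difference of 1.04. The aliphatic and shared list had 9 of 18 lower and 2 higher, with a median of -0.49. Of all probe sets, 8.39% were higher and 7.83% lower, with a median of 0.02. The counts were 7 higher and 0 lower for the indole list, and 2 higher and 7 lower for the aliphatic list, once the library labelled PLT1 replicate 3 was included.

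The raised members of the tryptophan branch ranged from its regulator to late enzymes. MYB34, a transcription factor that activates indole glucosinolate genes, was at 11.04 and 11.17 in PLT1 libraries, against 9.34, 9.42 and 9.38 in PLT7 libraries and 7.41 to 7.56 in mock (1.72 ± 0.09 SE; adjusted p = 1.86e-09). Of the pair of cytochromes P450 that turn tryptophan into indole-3-acetaldoxime, CYP79B3 was at 10.16 and 10.28 in PLT1 libraries, against 8.18, 8.48 and 8.58 in PLT7 libraries (1.80 ± 0.13 SE; adjusted p = 7.41e-08). CYP79B2 was at 8.40 and 8.67 in PLT1 libraries, against 7.17, 7.62 and 7.70 in PLT7 libraries (1.04 ± 0.16 SE; adjusted p = 0.000137). CYP83B1, which takes the oxime into glucosinolates, was at 12.91 and 13.03 in PLT1 libraries, against 11.38, 11.66 and 11.57 in PLT7 libraries and 8.99 to 9.17 in mock (1.43 ± 0.12 SE; adjusted p = 2.07e-07). For MYB34, CYP79B3 and CYP83B1 both lines lay above mock and PLT1 lay highest, apart from 1 mock library at 8.22 for CYP79B3, which was above PLT7 replicate 1.

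The late enzymes differed in their relation to mock. UGT74B1, the glucosyltransferase of the core pathway, was at 9.37 and 9.79 in PLT1 libraries, against 7.79, 7.77 and 7.77 in PLT7 libraries and 8.33 to 8.57 in mock (1.81 ± 0.11 SE; adjusted p = 7.87e-09), so that the lines lay on opposite sides of mock. The C-S lyase SUR1 was at 9.50 and 9.59 in PLT1 libraries, against 8.15, 8.30 and 8.12 in PLT7 libraries (1.36 ± 0.11 SE; adjusted p = 1.81e-07). The desulfoglucosinolate sulfotransferases SOT16 and SOT17 were higher by 1.47 ± 0.12 and 1.21 ± 0.18 (SE; adjusted p = 1.43e-07 and 0.000149). SUR1 and SOT17 are the 2 members of the aliphatic and shared list that were higher in PLT1. UGT74B1, though of the core pathway, was counted in the indole list. The counts of the 2 lists therefore depend in part on where shared enzymes were placed. AKN2, a kinase that makes the activated sulfate used by sulfotransferases and that was in neither list, was at 9.63 and 9.95 in PLT1 libraries, against 7.22, 7.33 and 7.45 in PLT7 libraries and 8.32 to 8.75 in mock (2.46 ± 0.12 SE; 5.49-fold, adjusted p = 9.16e-10). No library of one group overlapped another group for AKN2, with PLT1 highest, mock between and PLT7 lowest. Between PLT1 and PLT7 the naming rule required this lack of overlap. The P450 genes CYP81F2, whose product modifies the indole ring, and CYP81F1 (CYP91A2 in the gene table) were higher by 1.10 ± 0.22 and 1.04 ± 0.16 (SE; adjusted p = 0.00225 and 0.000137). The CYP81F2 call ended without PLT1 replicate 1 (adjusted p = 0.0632), and that of CYP81F1 with the library labelled PLT1 replicate 3 (adjusted p = 0.0733).

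The members lower in PLT1 were of the methionine branch and included its regulator. MYB28, the main activator of aliphatic glucosinolate genes, was at 4.04 and 4.36 in PLT1 libraries, against 6.03, 5.86 and 5.89 in PLT7 libraries and 7.53 to 8.06 in mock (-1.73 ± 0.16 SE; adjusted p = 6.25e-07). BCAT4, the aminotransferase of the first step, was at 5.62 and 5.89 in PLT1 libraries, against 8.42, 8.16 and 8.65 in PLT7 libraries and 9.49 to 10.03 in mock (-2.66 ± 0.24 SE; adjusted p = 7.41e-07). The chain-elongating methylthioalkylmalate synthase MAM1 was at 5.32 and 6.22 in PLT1 libraries, against 8.27, 8.23 and 8.40 in PLT7 libraries and 9.84 to 10.35 in mock (-2.53 ± 0.27 SE; adjusted p = 4.13e-06). Each of these genes was lower than mock in both lines and lower again in PLT1. Its relative MAM3 (IMS2) fell by -2.47 ± 0.25, the P450 CYP83A1 by -1.64 ± 0.19, and AOP2, which forms alkenyl side chains, by -2.16 ± 0.24 (SE; adjusted p = 2.52e-06, 8.72e-06 and 5.74e-06). In the library labelled PLT1 replicate 3 these genes other than AOP2 lay near PLT7 levels, with MYB28 at 6.26, BCAT4 at 7.97, MAM1 at 8.09, MAM3 at 8.02 and CYP83A1 at 7.94. With that library, the call of MYB28 ended (-1.04, adjusted p = 0.0998), and those of BCAT4, MAM1, MAM3 and CYP83A1 remained (adjusted p = 0.0105 to 0.048).

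**Figure D4:**
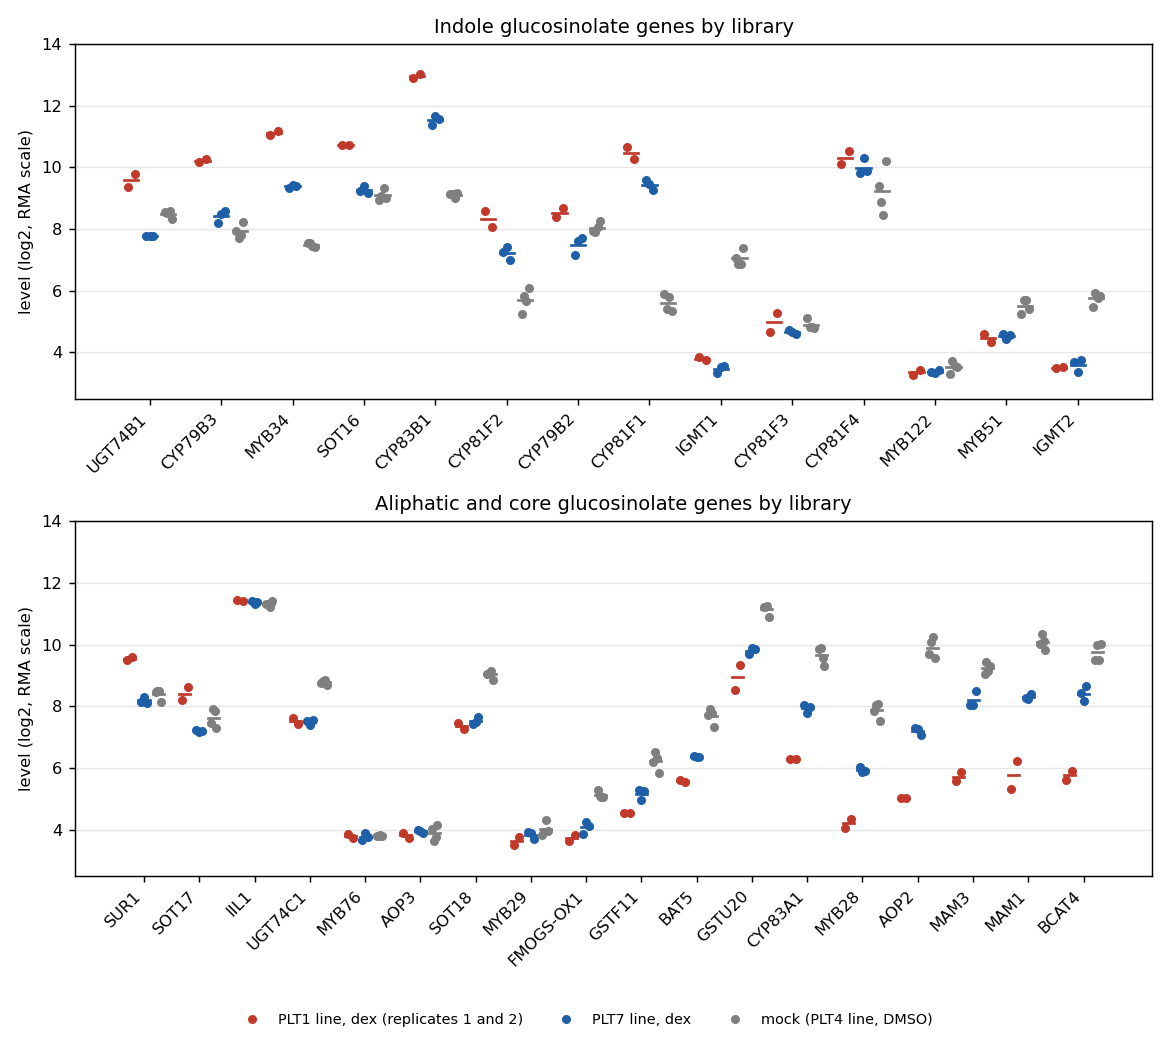
Levels (log2, RMA scale) of 14 indole glucosinolate genes (top) and 18 aliphatic and shared glucosinolate genes (bottom) in each library of the PLT1 line, the PLT7 line and mock, ordered by the difference of PLT1 minus PLT7, with group means as lines. The 8 indole genes on the left are higher in PLT1 by 1.04 to 1.81, and BCAT4 on the right of the bottom plot is lower by 2.66.

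Of 14 measured auxin synthesis genes, 2 were higher, 2 lower and 10 not called, with a median of -0.03, beside 8.39% higher and 7.83% lower among all probe sets. Beside YUC3, its relative YUC8 was at 10.66 and 10.74 in PLT1 libraries, against 10.08, 10.22 and 10.02 in PLT7 libraries and 6.62 to 6.81 in mock (0.60 ± 0.10 SE; adjusted p = 0.000589). YUC8 was thus far above mock in both lines and a little higher in PLT1, a call that ended with the library labelled PLT1 replicate 3 (adjusted p = 0.108). TAA1, the aminotransferase that acts before the YUC enzymes, was at 7.09 and 6.99 in PLT1 libraries, against 7.69, 7.74 and 7.79 in PLT7 libraries and 6.75 to 6.95 in mock (-0.70 ± 0.10 SE; adjusted p = 7.26e-05). Its relative TAR2 was also lower, by -0.62 ± 0.14 (SE; adjusted p = 0.00539, and 0.0698 without PLT1 replicate 2).

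Of 16 auxin transport genes, 3 were higher and 3 lower in PLT1, with a median of 0.02. The shares over all probe sets were 8.39% higher and 7.83% lower. The efflux carrier gene PIN4, expressed around the root stem cell niche, was at 10.72 and 10.71 in PLT1 libraries, against 9.63, 9.99 and 9.83 in PLT7 libraries and 8.58 to 8.68 in mock (0.90 ± 0.11 SE; adjusted p = 1.75e-05). PIN3, known for its part in gravity responses, was at 10.15 and 10.33 in PLT1 libraries, against 9.33, 9.36 and 9.43 in PLT7 libraries and 9.37 to 9.42 in mock (0.86 ± 0.08 SE; adjusted p = 9.09e-07). The PLT7 line thus lay above mock for PIN4 and overlapped it for PIN3. PIN7 was lower, by -0.56 ± 0.10 (SE; adjusted p = 0.000956, and 0.11 with the library labelled PLT1 replicate 3). The influx carrier LAX3, which acts in lateral root emergence, was at 5.80 and 6.51 in PLT1 libraries, against 6.86, 7.09 and 7.34 in PLT7 libraries (-0.94 ± 0.17 SE; adjusted p = 0.000671), which was -0.59 without PLT1 replicate 1.

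Of 19 measured early auxin response genes, 7 were lower, 1 was higher and 11 were not called in PLT1, with a median of -0.12, beside 7.83% lower and 8.39% higher among all probe sets. Without PLT7 replicate 1, 4 members were lower and 1 higher. IAA29, of the Aux/IAA repressor family, was at 4.89 and 4.84 in PLT1 libraries, against 6.33, 6.44 and 6.69 in PLT7 libraries and 6.46 to 6.76 in mock (-1.62 ± 0.17 SE; adjusted p = 2.54e-06). Its PLT7 level overlapped mock. IAA1 of the same family was at 6.66 and 6.73 in PLT1 libraries, against 7.18, 7.46 and 7.52 in PLT7 libraries and 5.90 to 6.26 in mock (-0.69 ± 0.13 SE; adjusted p = 0.000971). The 1 member that was higher was GH3.3, which joins auxin to amino acids, at 9.42 and 9.17 in PLT1 libraries against 8.47, 8.52 and 8.56 in PLT7 libraries (0.78 ± 0.13 SE; adjusted p = 0.000305).

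Root meristem growth factors (RGFs) are secreted peptides that stabilise PLT proteins in the root tip. Of their precursor genes, 4 named here were called at over 1 log2 unit, RGF3 and RGF8 higher and RGF9 and RGF6 lower in PLT1. Beside RGF3, RGF8 was at 7.62 and 8.0 in PLT1 libraries, against 6.61, 6.37 and 6.62 in PLT7 libraries and 3.91 to 4.16 in mock (1.28 ± 0.13 SE; adjusted p = 3.39e-06). RGF9 was at 4.56 and 5.36 in PLT1 libraries, against 7.49, 8.24 and 8.47 in PLT7 libraries and 7.15 to 7.73 in mock (-3.10 ± 0.27 SE; 8.60-fold lower, adjusted p = 3.85e-07). RGF6 was at 4.67 and 4.63 in PLT1 libraries, against 5.90, 5.76 and 5.99 in PLT7 libraries and 8.19 to 8.58 in mock (-1.23 ± 0.18 SE; adjusted p = 9.77e-05). RGF9 overlapped or exceeded the mock libraries in PLT7 and was below all of them in PLT1, whereas RGF6 was below mock in both lines. RGF9 remained called with the library labelled PLT1 replicate 3, at 6.30 there (-2.66, adjusted p = 0.000113), and RGF6, at 6.97 there, did not (adjusted p = 0.569). The whole list of root meristem regulators and peptides had 5 of 17 measured members higher, 2 lower and 10 not called in PLT1. Its median was 0.22, and of all probe sets 8.39% were higher and 7.83% lower.

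Of 14 measured genes of mitosis, 8 were higher in PLT1 and none lower, with a median of 0.43. Over all probe sets the shares were 8.39% higher and 7.83% lower. CDKB2;1, a kinase that acts at the entry into mitosis, was at 8.93 and 8.82 in PLT1 libraries, against 8.03, 8.05 and 8.05 in PLT7 libraries and 7.34 to 7.47 in mock (0.84 ± 0.08 SE; adjusted p = 8.11e-07). The kinesin gene HIK, needed to form the new cell plate, was at 8.13 and 7.81 in PLT1 libraries, against 7.09, 6.98 and 6.94 in PLT7 libraries (0.96 ± 0.16 SE; adjusted p = 0.000325). The microtubule-bundling gene PLE was at 7.05 and 6.88 in PLT1 libraries, against 6.27, 5.95 and 5.98 in PLT7 libraries (0.90 ± 0.13 SE; adjusted p = 9.21e-05). The groups did not overlap for these 3 genes, nor for 45.3% of all probe sets. The mitotic cyclins CYCB1;1 and CYCA1;1 were higher by 0.66 ± 0.12 and 0.57 ± 0.11 (SE; adjusted p = 0.00103 and 0.0011). With the library labelled PLT1 replicate 3, 3 of the 14 were called higher, PLE among them (adjusted p = 0.0204) and CDKB2;1 not (adjusted p = 0.192).

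DNA replication and ribosome biogenesis genes differed less. Their counts stand beside 8.39% of all probe sets higher and 7.83% lower. Of 18 replication genes 1 was higher and none lower, with a median of 0.11, although PLT1 and PLT7 each exceeded mock for 16 of them. The replication clamp gene PCNA1 was at 9.83 and 9.85 in PLT1 libraries, against 9.61, 9.55 and 9.71 in PLT7 libraries and 8.16 to 8.82 in mock (0.22 ± 0.14 SE; adjusted p = 0.337). Of 12 ribosome biogenesis genes 1 was higher and none lower, with a median of 0.14, and all 12 exceeded mock in both lines. FIB2, a fibrillarin that acts in ribosomal RNA processing, was at 10.96 and 11.20 in PLT1 libraries, against 11.26, 11.28 and 11.23 in PLT7 libraries (-0.17 ± 0.11 SE; adjusted p = 0.324). FIB2 had the lowest difference of its list, whose members ran up to 0.33, so it is not typical of them. Against mock, 50.8% of all probe sets were called in PLT1 (27.8% higher, 23% lower) and 47.5% in PLT7 (25.2% higher, 22.4% lower), and both comparisons use the same mock libraries.

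Among gibberellin genes beside GASA6, GA20OX2, an enzyme of gibberellin synthesis, was at 8.54 and 8.26 in PLT1 libraries, against 6.51, 6.41 and 6.36 in PLT7 libraries and 4.91 to 5.33 in mock (1.97 ± 0.14 SE; 3.92-fold, adjusted p = 3.34e-08). GASA1, of the same peptide family as GASA6, was at 13.37 and 13.02 in PLT1 libraries, against 11.94, 12.13 and 11.92 in PLT7 libraries and 9.28 to 9.97 in mock (1.20 ± 0.17 SE; adjusted p = 0.000103). In both lines GASA1 lay above mock and GASA6 below it, and PLT1 was farther from mock than PLT7 for both genes. In all, 4 of 15 gibberellin genes were higher and 2 lower, with a median of 0.09. For all probe sets the shares were 8.39% higher and 7.83% lower.

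Cytokinin genes were higher in 5 and lower in 1 of 25 cases, with a median of 0.05. All probe sets had 8.39% higher and 7.83% lower. The cytokinin response factor genes CRF3 and CRF5 had the largest differences of the list. CRF3 was at 8.54 and 8.62 in PLT1 libraries, against 7.31, 7.42 and 7.12 in PLT7 libraries and 4.35 to 4.80 in mock (1.29 ± 0.14 SE; adjusted p = 3.59e-06). CRF5 was at 6.22 and 6.79 in PLT1 libraries, against 5.26, 5.16 and 5.47 in PLT7 libraries and 5.01 to 5.38 in mock (1.20 ± 0.15 SE; adjusted p = 2.25e-05). CRF3 was above mock in both lines. For CRF5 every PLT1 library lay above mock, and the PLT7 libraries overlapped it. The CRF5 means of the PLT3, PLT4 and PLT5 lines, 6.19, 6.50 and 6.10, were above mock as well. ARR9, a type-A response regulator, was higher by 0.73 ± 0.14 (SE; adjusted p = 0.00158, and 0.174 with the library labelled PLT1 replicate 3).

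Among 13 genes of the shoot meristem and organ boundaries, 1 was higher and 1 lower, with a median of -0.02. This and the next counts stand beside 8.39% higher and 7.83% lower among all probe sets. The boundary gene CUC2 was at 6.19 and 5.84 in PLT1 libraries, against 5.02, 4.72 and 4.84 in PLT7 libraries and 3.69 to 4.20 in mock (1.15 ± 0.16 SE; adjusted p = 4.90e-05). All PLT1 libraries were above all PLT7 libraries, which were above all mock libraries. PLT1 and PLT7 libraries did not overlap for 45.3% of all probe sets. Of 10 growth-regulating factor genes 1 was higher (median 0.08), of 9 embryo regulators 1 was higher (median -0.08), and of 5 seed storage genes none was called (median -0.03). Of 6 lateral root initiation genes 1 was lower (median -0.04).

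Aquaporins, the channels that pass water through membranes, were lower in PLT1 in 7 of 15 cases and higher in 2. Among all probe sets, 7.83% were lower and 8.39% higher. The aquaporin median was -0.65, the lowest of the 31 lists. TIP1;2 (TIP2 in the gene table), of the vacuolar membrane, was at 8.86 and 9.49 in PLT1 libraries, against 10.95, 10.77 and 11.16 in PLT7 libraries and 12.95 to 13.11 in mock (-1.79 ± 0.15 SE; adjusted p = 2.07e-07). PIP2;6 (PIP2E), of the plasma membrane, was at 6.30 and 6.59 in PLT1 libraries, against 8.36, 8.18 and 8.46 in PLT7 libraries and 11.24 to 11.37 in mock (-1.89 ± 0.14 SE; adjusted p = 9.90e-08). Both lines were far below mock for these genes, and PLT1 was the lower. TIP1;1 (GAMMA-TIP), TIP2;1 (DELTA-TIP) and PIP2;1 (PIP2A) were lower by 1.48, 1.86 and 1.33 log2 units in the same order of groups (adjusted p = 8.28e-09, 8.76e-06 and 1.76e-06). With the library labelled PLT1 replicate 3, which had 11.60 at TIP1;2 and 9.95 at PIP2;6, none of these 5 was called (adjusted p = 0.137 to 0.669), and the list had 1 lower and 1 higher.

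Wall-loosening genes went both ways, with 5 of 17 expansin and xyloglucan endotransglucosylase (XTH) genes higher, 3 lower and a median of 0.08. The shares among all probe sets were 8.39% higher and 7.83% lower. The expansin EXPA3 (EXP3) was at 4.91 and 4.98 in PLT1 libraries, against 6.58, 6.68 and 6.74 in PLT7 libraries and 9.19 to 9.51 in mock (-1.72 ± 0.12 SE; adjusted p = 3.27e-08, and 0.385 with the library labelled PLT1 replicate 3). XTH19 was at 7.73 and 8.46 in PLT1 libraries, against 6.70, 6.25 and 6.59 in PLT7 libraries and 8.50 to 8.88 in mock (1.58 ± 0.20 SE; adjusted p = 2.47e-05). Both genes were below mock in both lines, EXPA3 lowest in PLT1 and XTH19 lowest in PLT7. The list had 2 higher and 0 lower once the library labelled PLT1 replicate 3 was included.

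Among genes of differentiated root tissues, none of 11 Casparian strip genes was higher and 3 were lower in PLT1, with a median of -0.31. The counts of this paragraph stand beside 8.39% higher and 7.83% lower among all probe sets. The membrane scaffold gene CASP1 was at 4.42 and 4.59 in PLT1 libraries, against 4.54, 4.63 and 5.54 in PLT7 libraries and 7.61 to 8.17 in mock (-0.40 ± 0.29 SE; adjusted p = 0.399), a difference of -0.08 without PLT7 replicate 3. CASP4 was lower by 0.52 log2 units (adjusted p = 0.00769). Of 16 xylem and secondary wall genes 5 were lower and none higher, with a median of -0.24. XCP1, a protease of dying xylem cells, was at 6.37 and 6.64 in PLT1 libraries, against 7.38, 7.67 and 7.38 in PLT7 libraries and 7.85 to 8.04 in mock (-0.97 ± 0.13 SE; adjusted p = 5.78e-05), and its relative XCP2 was lower by 0.57 log2 units (adjusted p = 0.00104). Once the library labelled PLT1 replicate 3 was included, XCP1 was the 1 xylem gene called (adjusted p = 0.0408).

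Suberin genes had 1 of 13 higher and 1 lower, with a median of -0.04. This share and the next are to be read beside 8.39% higher and 7.83% lower among all probe sets. Root hair and epidermis genes had 1 of 15 higher and 2 lower, with a median of -0.04. COW1, a phosphatidylinositol transfer protein needed for root hair growth, was at 4.68 and 5.08 in PLT1 libraries, against 5.75, 5.79 and 6.07 in PLT7 libraries (-0.99 ± 0.17 SE; adjusted p = 0.000512). Of 8 genes known from roots, 1 was lower (median -0.16). This was the iron transporter IRT1, at 3.64 and 3.74 in PLT1 libraries against 6.20, 4.40 and 6.44 in PLT7 libraries and 3.36 to 3.73 in mock (-1.99 ± 0.40 SE; adjusted p = 0.00189). IRT1 stood above mock in every PLT7 library, with wide spread, and PLT1 libraries were at mock levels. Of 14 photosynthesis genes 3 were lower and none higher, with a median of -0.12. The Calvin cycle kinase PRK was at 10.63 and 10.88 in PLT1 libraries, against 11.16, 11.16 and 11.30 in PLT7 libraries (-0.45 ± 0.10 SE; adjusted p = 0.00397, and 0.0942 without PLT1 replicate 1).

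**Figure D5:**
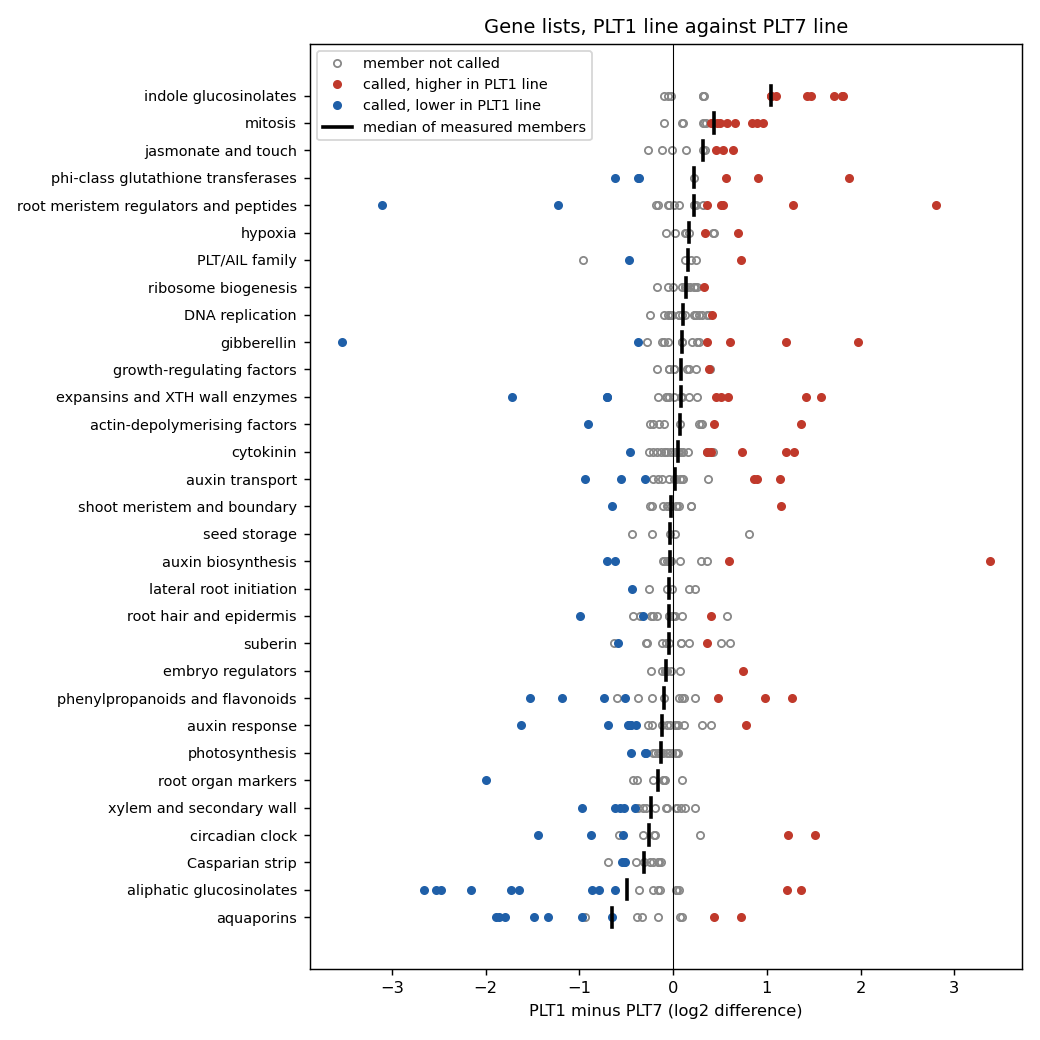
Log2 difference of PLT1 minus PLT7 for each measured member of the 31 gene lists, ordered by the list median (black line), with called members filled. The 2 induced genes are left out of the points. Indole glucosinolates have the highest median, 1.04, and aquaporins the lowest, -0.65.

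Of 10 clock genes 2 were higher and 3 lower in PLT1, with a median of -0.26. Over all probe sets 8.39% were higher and 7.83% lower. The morning genes LHY and CCA1 were higher in PLT1. LHY was at 6.64 and 6.92 in PLT1 libraries, against 5.26, 5.29 and 5.27 in PLT7 libraries (1.51 ± 0.43 SE; adjusted p = 0.0235), and CCA1 was at 5.68 and 5.69 in PLT1 libraries, against 4.72, 4.53 and 4.15 in PLT7 libraries (1.22 ± 0.33 SE; adjusted p = 0.0176). The later genes PRR5, GI and TOC1 were lower by 1.44, 0.88 and 0.53 log2 units (adjusted p = 0.00341, 0.00103 and 0.0107). Leaving out any of the 5 libraries ended the LHY call (adjusted p = 0.0543 to 0.134), leaving out PLT1 replicate 1, PLT1 replicate 2 or PLT7 replicate 3 ended that of CCA1 (adjusted p = 0.0715 to 0.0923), leaving out PLT1 replicate 1 ended that of PRR5 (adjusted p = 0.0579), and leaving out PLT1 replicate 2 that of TOC1 (adjusted p = 0.0891).

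The mock libraries differed among themselves in these genes. Mock replicate 4 was at 5.26 for LHY and 5.88 for CCA1, against 6.55 to 7.57 and 7.22 to 7.62 in the other three mock libraries. The library labelled PLT1 replicate 3 was at 5.05 for LHY and 4.39 for CCA1, close to the PLT7 line, and with it no clock gene of the list was called. Of the genes with the largest falls, 4 had the same arrangement of libraries. RbcX1, a chaperone for Rubisco assembly, was at 4.45 and 4.79 in PLT1 libraries, against 6.62, 7.49 and 8.09 in PLT7 libraries (-2.78 ± 0.56 SE; adjusted p = 0.00198), and at 6.25 in mock replicate 4 against 3.35 to 4.07 in the other mock libraries. BT2, a BTB-domain gene that responds to light and nitrogen, was at 5.76 and 6.86 in PLT1 libraries, against 8.26, 8.95 and 9.32 in PLT7 libraries (-2.54 ± 0.44 SE; adjusted p = 0.000508), and at 6.68 in mock replicate 4 against 4.74 to 5.55 in the others. CCL was at 9.35 and 10.05 in PLT1 libraries, against 11.64, 11.96 and 11.93 in PLT7 libraries (-2.14 ± 0.47 SE; adjusted p = 0.00382, and 0.0712 without PLT1 replicate 1), and at 10.68 in mock replicate 4 against 7.95 to 9.04 in the others. MEE14 was at 7.58 and 7.96 in PLT1 libraries, against 9.38, 10.04 and 10.05 in PLT7 libraries (-2.05 ± 0.40 SE; adjusted p = 0.00143), and at 8.37 in mock replicate 4 against 6.19 to 6.90 in the others. These genes moved with the clock genes also within the mock group, and the part of the hour of harvest in their differences was not tested. With the library labelled PLT1 replicate 3 none of the 4 was called (adjusted p = 0.0527 to 0.103).

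The naming rule took 8 genes for which the lines were called on opposite sides of mock. It keeps at most 4 of each direction by size, so 8 is its limit. The number of such probe sets among all is not given here. AKN2, UGT74B1 and RGF9 are given above. BCA6, a carbonic anhydrase, was at 7.62 and 8.42 in PLT1 libraries, against 5.97, 6.22 and 5.95 in PLT7 libraries and 7.04 to 7.38 in mock (1.97 ± 0.17 SE; adjusted p = 3.22e-07). BCS1, named for a mitochondrial AAA protein of yeast, was at 6.61 and 5.76 in PLT1 libraries, against 4.22, 4.51 and 4.07 in PLT7 libraries and 4.34 to 5.84 in mock (1.92 ± 0.31 SE; adjusted p = 0.000287). BCS1 overlapped mock in both lines, whereas BCA6 did not overlap it in either. The zinc finger gene ZFP7 was at 5.95 and 5.82 in PLT1 libraries, against 7.31, 7.06 and 7.12 in PLT7 libraries and 6.21 to 6.79 in mock (-1.27 ± 0.13 SE; adjusted p = 2.67e-06). The polyamine oxidase gene PAO5 was at 6.33 and 6.60 in PLT1 libraries, against 7.70, 7.61 and 7.81 in PLT7 libraries and 6.92 to 7.10 in mock (-1.24 ± 0.11 SE; adjusted p = 4.24e-07). The fimbrin gene FIM5, which bundles actin, was at 5.87 and 5.81 in PLT1 libraries, against 6.99, 7.06 and 7.15 in PLT7 libraries and 6.60 to 6.88 in mock (-1.23 ± 0.10 SE; adjusted p = 1.38e-07). For ZFP7, PAO5 and FIM5 no library of one group overlapped another group. Between PLT1 and PLT7 the naming rule required this. The share of all probe sets that also lie apart from mock is not given here.

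Phenylpropanoid and flavonoid genes were higher in 3 and lower in 4 of 15 cases, with a median of -0.10. Among all probe sets 8.39% were higher and 7.83% lower. F5H (FAH1 in the gene table, AT4G36220), which makes the precursors of syringyl lignin and sinapate esters, was at 9.80 and 9.92 in PLT1 libraries, against 8.53, 8.57 and 8.66 in PLT7 libraries and 7.13 to 7.82 in mock (1.27 ± 0.14 SE; adjusted p = 4.88e-06, and 0.168 with the library labelled PLT1 replicate 3). PAL1, the entry enzyme of the pathway, was at 5.89 and 6.24 in PLT1 libraries, against 6.70, 6.67 and 7.05 in PLT7 libraries and 9.18 to 9.58 in mock (-0.74 ± 0.14 SE; adjusted p = 0.00151, and 0.688 with the library labelled PLT1 replicate 3). The PLT1 line was thus farther from mock than PLT7 for both genes, above it for F5H and below it for PAL1. The flavonoid genes CHS (TT4) and FLS1 were lower, and the PLT1 libraries were apart in both. CHS was at 7.40 and 8.27 in PLT1 libraries, against 9.01 in all 3 PLT7 libraries (-1.18 ± 0.20 SE; adjusted p = 0.000492), and by -0.75 without PLT1 replicate 1. FLS1 was at 5.16 and 6.90 in PLT1 libraries, against 7.54, 7.55 and 7.59 in PLT7 libraries (-1.53 ± 0.34 SE; adjusted p = 0.00403), a call that ended without PLT1 replicate 1 (-0.66, adjusted p = 0.132) and stood at -2.40 without PLT1 replicate 2.

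Phi-class glutathione transferases, which join glutathione to small molecules, were higher in 3 and lower in 3 of 7 cases (median 0.22). The counts of the 4 lists here stand beside 8.39% higher and 7.83% lower among all probe sets. GSTF13 (ATGSTF13) was at 9.61 and 9.84 in PLT1 libraries, against 7.91, 7.82 and 7.81 in PLT7 libraries and 3.59 to 4.71 in mock (1.88 ± 0.39 SE; adjusted p = 0.00247). GSTF9 was at 13.20 and 13.17 in PLT1 libraries, against 12.23, 12.25 and 12.33 in PLT7 libraries and 12.15 to 12.32 in mock (0.91 ± 0.08 SE; adjusted p = 4.57e-07), and GSTF10 was higher by 0.56 ± 0.08 (SE; adjusted p = 0.000128). The lower members were GSTF8 by -0.37 ± 0.10, GSTF11 by -0.62 ± 0.18 and GSTF14 by -0.36 ± 0.11 (SE; adjusted p = 0.0157, 0.0218 and 0.0296). Each of these 3 calls ended without PLT1 replicate 1 (adjusted p = 0.0907, 0.102 and 0.0593) and without PLT1 replicate 2 (adjusted p = 0.0629, 0.0929 and 0.195). GSTF9 was above mock in PLT1 and overlapped it in PLT7. Actin-depolymerising factors were higher in 2 and lower in 1 of 11 cases (median 0.07). ADF9 was at 10.63 and 10.68 in PLT1 libraries, against 9.15, 9.40 and 9.34 in PLT7 libraries and 4.37 to 5.20 in mock (1.36 ± 0.18 SE; adjusted p = 4.56e-05), and ADF11 was lower by 0.91 log2 units (adjusted p = 0.00297, and 0.0612 without PLT1 replicate 1). Jasmonate and touch genes were higher in 3 and lower in 0 of 9 cases (median 0.32), among them OPR3, an enzyme of jasmonate synthesis, by 0.64 ± 0.12 (SE; adjusted p = 0.00131). OPR3 was at 5.79 and 5.55 in PLT1 libraries, against 5.15, 5.07 and 4.85 in PLT7 libraries and 5.79 to 5.97 in mock. Against mock, 6 of the 9 were lower in PLT1 and 7 in PLT7, and none was higher. Of all probe sets, 23% and 22.4% were lower than mock. Hypoxia genes were higher in 2 and lower in 0 of 9 cases (median 0.17).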

How the data were processed

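RNA of whole seedlings was hybridised to 18 single-colour arrays. The deposited table holds log2 values made by the authors with RMA and limma 3.24.15 among the tools, per the submitters' processing notes. RMA forces all arrays onto 1 distribution, which would hide a shift of most genes, and compresses differences near background. The table has no detection calls and names no genome build. Of 21494 probe sets, 64 controls were used for RNA quality alone. Of the 21430 others, 21231 matched a TAIR10.1 gene table that served for names, 199 did not, and 21120 matched exactly 1 gene. In 106 groups 221 probe sets had identical values and cannot be told apart.

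Samples were grouped by their titles, which describe replicates as biological. The fit in limma 3.58.1 (R 4.3.3) took 17 arrays, without the library labelled PLT1 replicate 3, with 1 coefficient per group, two-sided moderated tests and Benjamini-Hochberg adjusted p-values. PLT1 rests on 2 libraries, so its spread is borrowed from the other groups. Where the 2 PLT1 libraries lie far apart, as for PUP4, FLS1, TIP2;1 and BCA6, the SE and adjusted p carry that distance only in part. On simulated data for PLT1 against PLT7, 93% of 100 probe sets changed by 1 log2 unit and 52% of 100 changed by 0.5 were recovered. The share of false calls was 2.68%. The simulation used independent normal noise of equal spread in all groups and changed few probe sets, whereas 16.2% were called in the data. It therefore checks the calculation and does not measure the false calls in these data. Figures were drawn with matplotlib 3.10.9 in Python 3.11.15.

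The members, the 31 gene lists (442 entries, 436 genes, 397 measured) and the tests were chosen with earlier results of these data known. The naming rule took the PLT/AIL family and the 12 largest called rises and falls with a symbol, 1 matching gene and no group overlap. It took at most 4 genes of each direction called on opposite sides of mock, under the same conditions. From each list it took at most 4 called members (where fewer than 2 were called, at most 2 uncalled ones, given as values). Of 106 genes named, 18 are list members that fall outside it, picked with their values in view. Alternatives were each library left out, fits on fewer arrays, variance models, array weights, centring, quantile normalisation, filters on probe sets and the replicate number as a block. A fit without PLT7 replicate 1 and PLT5 replicate 3, which had a PLT signal against their label, was added after the data were seen. Same-numbered replicates of PLT1 and PLT7 had deviations that correlated at 0.11 and -0.05. With 2 PLT1 libraries, whose deviations mirror each other, these values cannot exclude pairing. The numbers are not known to pair flasks and were not treated as pairs.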

Additional observations from a re-analysis of the deposited data

Results flagged for a closer look

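In the library labelled PLT1 replicate 3, which was left out of the comparison except as an alternative, the PLT2 probe set was at 10.28, against 3.67 to 4.06 in mock. For 8 genes, the most that the naming rule takes, PLT1 was called on one side of mock and PLT7 on the other. The difference of PLT1 minus PLT7, itself called, was 2.46 for AKN2, 1.97 for BCA6, 1.92 for BCS1 and 1.81 for UGT74B1, and it was -3.10 for RGF9, -1.27 for ZFP7, -1.24 for PAO5 and -1.23 for FIM5.

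Of 106 named genes, 8 had 1 mock library far from the other three by Dixon's test for 4 samples, which chance alone gives in about 1 of 20 genes. Mock replicate 1 was at 6.26 for IAA1 (others 5.90 to 5.94) and at 4.59 for PLT3 (others 4.73 to 4.76). Mock replicate 2 was at 3.94 for GLN1;4 (others 4.18 to 4.21). Mock replicate 3 was at 8.02 for LAX3 (others 8.24 to 8.27), at 3.20 for scpl38 (others 3.25) and at 8.50 for XTH19 (others 8.82 to 8.88). Mock replicate 4 was at 8.33 for UGT74B1 (others 8.53 to 8.57) and at 8.15 for SUR1 (others 8.45 to 8.50). Mock libraries do not enter the difference between the lines except through the shared spread.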

How the results depend on the processing

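Including the library labelled PLT1 replicate 3 changed the most: calls numbered 1778 (842 higher and 936 lower in PLT1), 212 of them at least 2-fold, against 3477 (1798 and 1679) and 425 without it. It ended 35 of the 99 calls among the 106 named genes and reversed none. That library had its PLT1 probe set at 3.50 and its PLT2 probe set at 10.28. The fit with it shows how the calls depend on its inclusion and does not test PLT1 induction. Leaving out 1 library gave 2159 to 2859 calls, 1104 to 1522 higher and 1055 to 1405 lower, with 401 to 550 at least 2-fold and the fewest calls without PLT1 replicate 1, and ended 3 to 12 calls of named genes. Without PLT7 replicate 3, PLT3 became called (-1.34, adjusted p = 0.0196). Its levels in PLT7 were 6.49 in replicate 1, 4.63 in replicate 2 and 4.39 in the replicate left out. The cause of the lost calls was not tested, and each of the fits without a library has 1 array fewer. The other settings gave 2694 to 4276 calls, and named genes kept their direction in each. A fit on the compared groups alone ended the call of GSTF14 (adjusted p = 0.0713). Array weights ended the call of ANT (adjusted p = 0.0619), and the variance model with a trend ended those of CCA1 and LHY (adjusted p = 0.0519 and 0.0763). The filter on dim probe sets kept 80 of the named genes, and none of them changed its call. With the replicate number as a block there were 3546 calls (1820 higher and 1726 lower, 438 at least 2-fold). In that fit the call of ANT ended (adjusted p = 0.0644). Whether the numbers pair the samples is not known, so the fit is given as an alternative only. PLT1 against mock gave 7594 to 11071 calls and PLT7 against mock 7336 to 10471. The 2 PLT1 and 3 PLT7 arrays limit the precision, and without detection calls a level near the bottom of the scale cannot be told from background.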
